A study of Homo sapiens with 12 samples.

Results

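The genes described here encode enzymes of the kynurenine pathway, by which cells break down the amino acid tryptophan. The list held 8 genes, TDO2, IDO1, AADAT, KYNU, KMO, HAAO, ACMSD and QPRT, and was drawn up with earlier results of these data known. For each gene the probe set was selected on its mean over all 12 arrays, among the probe sets that name only that gene, and the group values played no part in that step. Each of 7 listed genes had 1 such probe set, so no choice among probe sets arose, and they are 7 of the 17958 genes measured. KMO has none, because both of its probe sets also name OPN3, and it is described apart.

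The first step of the pathway opens the indole ring of tryptophan and is made by TDO2, best known from the liver, or by IDO1, which cytokines induce in many cell types. Kynurenine then follows branches, toward kynurenic acid (aminotransferases such as AADAT), toward anthranilic acid (KYNU), or through KMO, KYNU, HAAO and QPRT toward quinolinic acid and NAD. Kynurenine and some of its products are ligands of the aryl hydrocarbon receptor, and tryptophan loss and kynurenine from tumour cells are known to dampen T cells.

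The study used BT549, an established human triple-negative breast cancer cell line with mesenchymal traits. All cells received siRNA for 72 hours, either a control siRNA or pooled siRNAs to c-Jun, which is part of the AP-1 factor, and then vehicle or the inflammatory cytokine TNFα for 6 hours. This gave 4 groups: control siRNA with vehicle, control siRNA with TNFα, c-Jun siRNA with vehicle and c-Jun siRNA with TNFα. Total RNA of each sample was hybridised to an Affymetrix array, with 3 arrays per group. The labels number these arrays as replicates but do not say whether each was grown apart, so a p-value here reflects only how these arrays scatter, which may be technical. All cells are of 1 line, and no group without siRNA was among the samples.

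Levels are the deposited log2 values, and differences are log2 differences between group means with their standard error. An adjusted p comes from limma, fitted over all genes with Benjamini-Hochberg adjustment, and a gene is called at an adjusted p under 0.05. The array files give no detection call, and precision is limited by how few arrays there are. Among markers of the line, the mesenchymal genes VIM, CDH2, FN1, SPARC and ZEB1 had group means from 9.71 to 12.7, and ESR1 (4.35 to 4.41) and PGR (3.69 to 3.76) lay below the array medians of 5.62 to 5.68. Among the epithelial markers CDH1 (4.45 to 5.48) and EPCAM (4.06 to 4.48) were also below them, and ERBB2 (8.71 to 8.88) and GATA3 (7.68 to 9.20) were above. Some of these moved with the treatments, and their part in the results below was not tested. GATA3 fell with TNFα (-1.33 with control siRNA, adjusted p = 1.40e-11, and -1.24 with c-Jun siRNA, adjusted p = 5.01e-11). In the same order, ZEB1 fell (-0.38, adjusted p = 3.46e-07, and -0.15, adjusted p = 0.00611) and SPARC fell (-0.26, adjusted p = 1.04e-06, and -0.12, adjusted p = 0.00355). FN1 rose with TNFα (0.36, adjusted p = 8.87e-09, and 0.20, adjusted p = 1.78e-05). CDH2 fell with control siRNA only (-0.14, adjusted p = 0.0102). With c-Jun siRNA only, VIM (0.11, adjusted p = 0.0181) and CDH1 (0.48, adjusted p = 3.85e-04) rose and ERBB2 fell (-0.17, adjusted p = 0.0215). With c-Jun siRNA, CDH1 was higher (0.55 under vehicle, adjusted p = 9.38e-05, and 0.95 under TNFα, adjusted p = 1.85e-07). FN1 was lower (-0.45, adjusted p = 1.02e-09, and -0.60, adjusted p = 2.22e-11), but SPARC was higher (0.10, adjusted p = 0.0137, and 0.24, adjusted p = 4.85e-06). VIM, CDH2 and ZEB1 were called lower with c-Jun siRNA under vehicle and not called under TNFα. GATA3 was called higher with c-Jun siRNA under both treatments, and ESR1, PGR, ERBB2 and EPCAM were called under neither. Of 7 leukocyte and macrophage markers measured, every group mean lay between 3.36 and 5.46, also below those medians, and their average per array ran from 4.15 to 4.32. Among these, CD14 fell with TNFα under control siRNA (-0.30, adjusted p = 0.0254) and ITGAM rose, by 0.78 ± 0.0933 with control siRNA (adjusted p = 1.92e-06) and by 0.69 with c-Jun siRNA (adjusted p = 1.06e-05), and its part in the results below was not tested. The pan-leukocyte gene PTPRC had group means between 3.78 and 3.83. In RNA of whole cultures, fewer cells that express a gene and less RNA per cell cannot be told apart.

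The targeted gene was measured first. JUN was at 10.36, 10.35 and 10.36 with control siRNA and vehicle, and at 9.82, 9.85 and 9.81 with c-Jun siRNA and vehicle. With TNFα it was at 11.12, 11.05 and 11.05 with control siRNA, and at 10.36, 10.33 and 10.39 with c-Jun siRNA. The c-Jun siRNA arrays lay below the control siRNA arrays under each treatment, with 69.5% of the signal left with vehicle (-0.52 ± 0.0319, adjusted p = 4.48e-10) and 61.1% left with TNFα (-0.71 ± 0.0319, adjusted p = 9.26e-12). TNFα raised JUN in both siRNA groups, so the level with c-Jun siRNA and TNFα (mean 10.36) was near that with control siRNA and vehicle (mean 10.35).

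Promoter sequences are printed for the members with the largest c-Jun siRNA and TNFα responses among those with an entry, TDO2 and KYNU. RefSeq promoter entries (GRCh38.p14) were found for 6 of the 8 listed genes, in 9 windows, and each window is the 250 bases before a gene start. IDO1 and ACMSD had no entry, so their promoters were not searched. The 9 windows were searched on both strands for the AP-1 motif (TGANTCA) and the interferon gamma-activated motif GAS (TTCNNNGAA). The interferon response motif ISRE (GAAA, any 2 bases, GAAA) and the kappaB consensus were searched for in the same way. The capitals mark the match, an AP-1 match 244 bases before the start in TDO2 (chr4:155903446-155903695, plus strand) and a GAS match 34 bases before the start in KYNU (chr2:142877414-142877663, plus strand).
TDO2: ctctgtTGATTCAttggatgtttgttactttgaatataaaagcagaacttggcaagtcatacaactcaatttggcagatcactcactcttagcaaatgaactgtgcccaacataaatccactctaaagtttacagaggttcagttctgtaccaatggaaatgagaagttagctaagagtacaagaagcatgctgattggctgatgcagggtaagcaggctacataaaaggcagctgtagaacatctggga
KYNU: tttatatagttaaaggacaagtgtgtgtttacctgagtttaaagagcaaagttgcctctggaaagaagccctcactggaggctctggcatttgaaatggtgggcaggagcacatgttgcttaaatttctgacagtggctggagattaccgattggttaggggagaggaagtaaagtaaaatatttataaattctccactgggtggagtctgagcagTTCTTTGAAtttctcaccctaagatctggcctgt
Of 35116 promoter windows of this length in the table, 6.57% hold an AP-1 match and 6.57% a GAS match, so each is a common string. A kappaB match, found in 9.96% of windows, lies 63 bases before 1 of the AADAT starts. No searched window of a member holds the ISRE match, which 3.02% of windows hold, and IDO1 was not among those searched. A match describes letters in a window and was not tested as a binding site.

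Among the ring-opening enzymes, TDO2 followed the siRNA and IDO1 followed TNFα. TDO2 was at 7.74, 7.48 and 8.09 on the arrays with control siRNA and vehicle, and at 9.75, 9.54 and 9.78 with c-Jun siRNA and vehicle. With TNFα it was at 7.53, 7.29 and 7.51 with control siRNA, and at 9.52, 9.51 and 9.51 with c-Jun siRNA. Every c-Jun siRNA array lay above every control siRNA array. TDO2 was 3.78-fold higher with c-Jun siRNA than with control siRNA under vehicle (1.92 ± 0.106, adjusted p = 1.21e-10) and 4.20-fold higher under TNFα (2.07 ± 0.106, adjusted p = 5.37e-11). The lowest group was control siRNA with TNFα (mean 7.44 ± 0.132, SD, n = 3), followed by control siRNA with vehicle (7.77 ± 0.306), c-Jun siRNA with TNFα (9.51 ± 0.00306) and c-Jun siRNA with vehicle (9.69 ± 0.129).

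The effect of TNFα on TDO2 was small beside that of the siRNA. With control siRNA, TDO2 was 0.33 lower with TNFα than with vehicle (-0.33 ± 0.106, adjusted p = 0.0210), and the arrays of these groups overlapped. That call was lost in 11 of 30 alternatives, among them leaving out vehicle replicate 3 (-0.17, adjusted p = 0.152) or TNFα replicate 2 (-0.25, adjusted p = 0.114). Comparing only arrays with code 7 in their names was another (-0.21, adjusted p = 0.206). With c-Jun siRNA the difference was -0.18 ± 0.106 (adjusted p = 0.249), although the arrays of these groups did not overlap. With a code in the array names as a fixed block it was 0.26, of the opposite sign and not called. The difference between the TNFα responses was 0.15 ± 0.150 (adjusted p = 0.704), and 0.45 with that block, called in neither fit.

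The array names end in a code whose digits, 5, 7 or 9, are unevenly spread over the groups, and the labels do not say what it stands for. All 3 arrays of c-Jun siRNA with vehicle carry code 5, which only 1 other array carries, replicate 3 of control siRNA with vehicle. Against that array, which has the highest TDO2 level of its group, TDO2 was 1.60 higher with c-Jun siRNA (adjusted p = 0.00133), a fit in which the lone array is assumed to vary like the other 3. Under TNFα the values within a code were 2.11 for code 7, with 2 control siRNA arrays against 1, and 1.98 for code 9, with 1 against 2. These have no test. The c-Jun siRNA arrays with TNFα carry codes 7 and 9 and none carries code 5. TNFα and the code thus cannot be told apart within c-Jun siRNA. Every TNFα effect with c-Jun siRNA given here, and every interaction, has this limit.

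IDO1 was at 4.59, 4.41 and 4.79 with control siRNA and vehicle, and at 8.41, 8.40 and 8.34 with that siRNA and TNFα. In c-Jun siRNA cells it was at 4.43, 4.41 and 4.49 with vehicle, and at 8.18, 8.05 and 8.16 with TNFα. All vehicle arrays lay below the array medians, and all TNFα arrays lay far above them with no overlap. IDO1 rose 13.8-fold with TNFα under control siRNA (3.79 ± 0.0824, adjusted p = 6.26e-17) and 12.9-fold under c-Jun siRNA (3.69 ± 0.0824, adjusted p = 1.80e-16). Because the starting level is among the dimmer ones of the array, these folds depend on how dim values are read, and with values under 5 set to 5 the rise was 3.38 and 3.13.

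The siRNA made a small difference to IDO1. Under TNFα, the 3 c-Jun siRNA arrays lay below the 3 control siRNA arrays, with 84.0% of the signal (-0.25 ± 0.0824, adjusted p = 0.0277). This call was lost in 7 of 28 alternatives, among them leaving out replicate 1 or 2 of control siRNA with TNFα (adjusted p = 0.0852 and 0.0786) and replicate 2 or 3 of c-Jun siRNA with TNFα (adjusted p = 0.111 and 0.0537). Its value was -0.32 within code 7 and -0.24 within code 9. Under vehicle the difference was -0.15 ± 0.0824 (adjusted p = 0.193), and the arrays overlapped. It was called without replicate 2 of control siRNA with vehicle (-0.25, adjusted p = 0.0287) and with the code as a fixed block (-0.34, adjusted p = 0.0231). Within code 5 it was -0.34 (adjusted p = 0.0549). The TNFα responses under both siRNAs differed by -0.10 ± 0.117 (adjusted p = 0.767). By level the groups were ordered c-Jun siRNA with vehicle (4.44), control siRNA with vehicle (4.60), c-Jun siRNA with TNFα (8.13) and control siRNA with TNFα (8.38), and the first pair of neighbours did not differ beyond their spread.

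**Figure D1:**
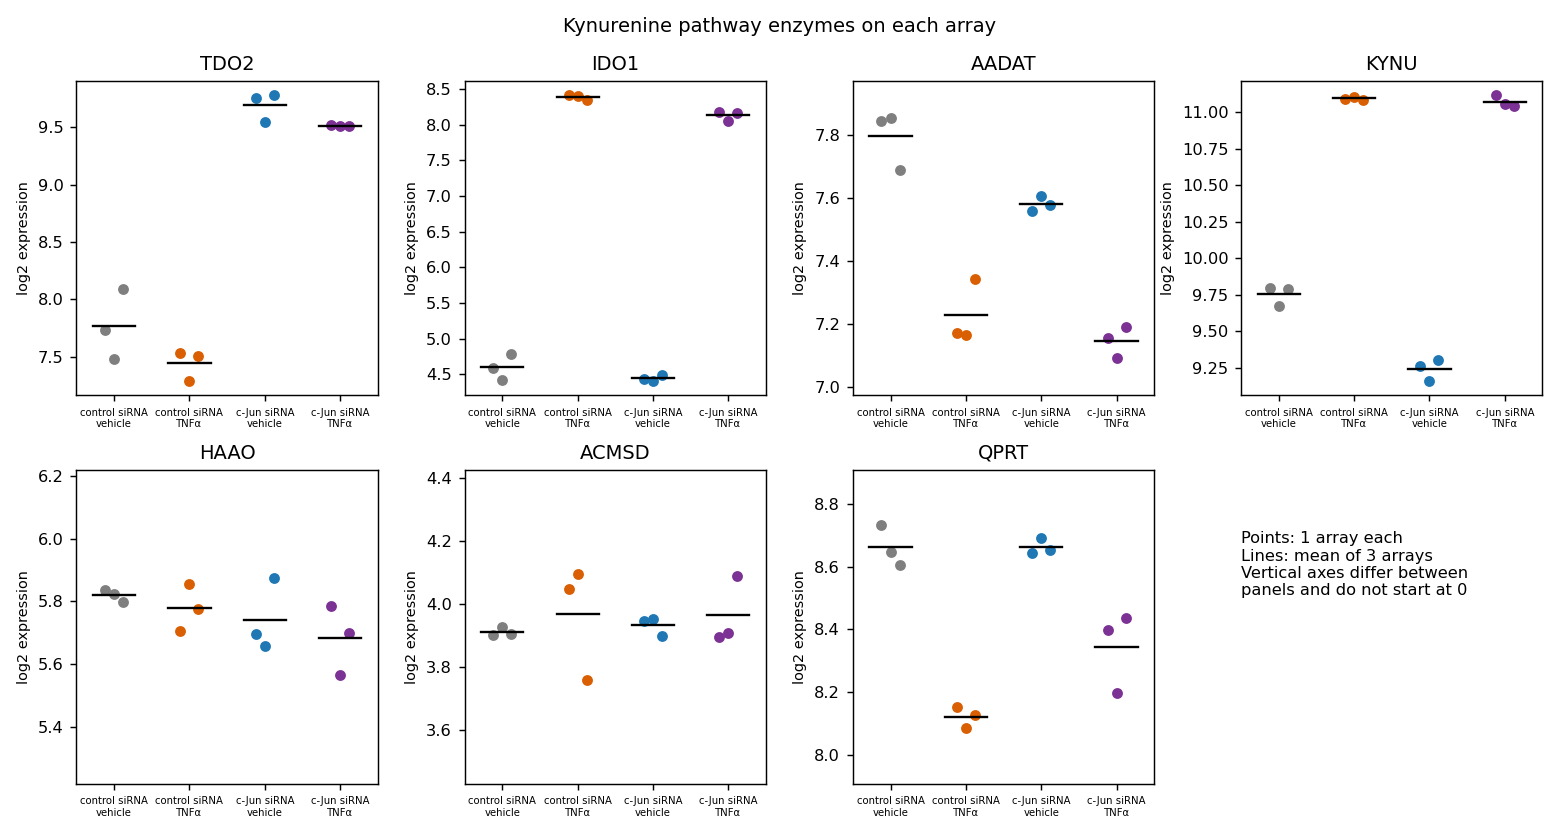
Level (log2) of each of the 7 members on each array, 1 panel per gene with its own vertical axis, by siRNA and treatment; points are arrays and lines are means of 3. TDO2 separates by siRNA, IDO1 and KYNU by TNFα, AADAT and QPRT fall with TNFα, and HAAO and ACMSD have no called difference.

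AADAT, an aminotransferase that turns kynurenine into kynurenic acid, fell with TNFα. It was at 7.85, 7.85 and 7.69 with control siRNA and vehicle, and at 7.17, 7.16 and 7.34 with that siRNA and TNFα. In c-Jun siRNA cells it was at 7.56, 7.61 and 7.58 with vehicle, and at 7.15, 7.09 and 7.19 with TNFα. The vehicle arrays lay above the TNFα arrays under each siRNA. The fall left 67.3% of the signal with control siRNA (-0.57 ± 0.0634, adjusted p = 7.54e-07) and 73.9% with c-Jun siRNA (-0.44 ± 0.0634, adjusted p = 2.51e-05), and the falls differed by 0.13 ± 0.0896 (adjusted p = 0.510). Under vehicle AADAT was lower with c-Jun siRNA (-0.22 ± 0.0634, adjusted p = 0.0142), but -0.11 against the single control siRNA array of the same code. With the code as a fixed block it was -0.11 and not called (adjusted p = 0.477). That call was also lost on leaving out vehicle replicate 1 or 2 of control siRNA (adjusted p = 0.0614 and 0.0697) or vehicle replicate 1 of c-Jun siRNA (adjusted p = 0.0509). Under TNFα the siRNA groups overlapped (-0.08, adjusted p = 0.409).

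KYNU, the kynureninase that cleaves kynurenine and 3-hydroxykynurenine, was raised by TNFα from different starting levels to overlapping ones. It was at 9.80, 9.68 and 9.79 with control siRNA and vehicle, and at 9.26, 9.16 and 9.30 with c-Jun siRNA and vehicle. With TNFα it was at 11.09, 11.10 and 11.08 with control siRNA, and at 11.11, 11.06 and 11.04 with c-Jun siRNA. The vehicle groups did not overlap, and the TNFα groups did. Under vehicle, c-Jun siRNA left 70.1% of the KYNU signal (-0.51 ± 0.0408, adjusted p = 1.70e-08), and within code 5 the difference was -0.55 (adjusted p = 0.00829). Under TNFα the difference was -0.02 ± 0.0408 (adjusted p = 0.764).

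The rise of KYNU with TNFα was 2.53-fold with control siRNA (1.34 ± 0.0408, adjusted p = 7.93e-15) and 3.55-fold with c-Jun siRNA (1.83 ± 0.0408, adjusted p = 1.80e-16). The difference between these rises was 0.49 ± 0.0577 (adjusted p = 2.11e-05). It stayed called in each of 28 alternatives, between 0.45 and 0.53. KYNU was the member with a called interaction, and 5.47% of all genes had one, 1.88% with a higher value and 3.59% with a lower one.

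HAAO and ACMSD act late in the branch toward quinolinic acid, HAAO making the direct precursor of quinolinic acid and ACMSD diverting that precursor away from it. HAAO was between 5.57 and 5.87 on all 12 arrays, with group means of 5.82 ± 0.0188, 5.78 ± 0.0738, 5.74 ± 0.115 and 5.68 ± 0.112 (SD, n = 3) in the order control siRNA with vehicle, control siRNA with TNFα, c-Jun siRNA with vehicle and c-Jun siRNA with TNFα. ACMSD had group means of 3.91 ± 0.0145, 3.97 ± 0.182, 3.93 ± 0.0298 and 3.96 ± 0.110 in the same order. Its mean over all arrays was at percentile 12.5 of all genes, below the array medians, and that of HAAO at 39.1, near them. The lowest adjusted p of HAAO over the 5 comparisons was 0.458, for -0.09 ± 0.0801 between the siRNAs under TNFα. That of ACMSD was 0.663, for 0.06 ± 0.0803 with TNFα under control siRNA. A missed threshold does not show that either transcript was steady.

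QPRT, which turns quinolinic acid into a precursor of NAD, also fell with TNFα. It was at 8.73, 8.65 and 8.61 with control siRNA and vehicle, and at 8.15, 8.09 and 8.13 with that siRNA and TNFα. In c-Jun siRNA cells it was at 8.64, 8.69 and 8.65 with vehicle, and at 8.40, 8.20 and 8.44 with TNFα. The vehicle arrays of both siRNAs overlapped, and every TNFα array lay below them. The fall left 68.8% of the signal with control siRNA (-0.54 ± 0.0565, adjusted p = 3.48e-07) and 80.3% with c-Jun siRNA (-0.32 ± 0.0565, adjusted p = 2.25e-04). Under TNFα QPRT was higher with c-Jun siRNA (0.22 ± 0.0565, adjusted p = 0.00534) with no overlap, at 0.09 within code 7 and 0.26 within code 9. The falls differed by 0.22 ± 0.0799 (adjusted p = 0.136), which reached the threshold without c-Jun siRNA TNFα replicate 2, the lowest array of its group (0.30, adjusted p = 0.0133).

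Counted over the 7 measured enzymes, TNFα under control siRNA changed 5, with IDO1 and KYNU higher and TDO2, AADAT and QPRT lower. Over all genes tested, 35.7% were called in this comparison, 13.8% higher and 21.9% lower. With c-Jun siRNA, TNFα changed 4, IDO1 and KYNU higher and AADAT and QPRT lower, against 29.6% of all genes, 11.3% higher and 18.3% lower. The median size of the log2 difference was 0.54 for the enzymes and 0.10 for all genes under control siRNA, and 0.32 and 0.091 under c-Jun siRNA.

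For the siRNA, 3 of 7 enzymes were called under vehicle, TDO2 higher and KYNU and AADAT lower, against 28.9% of all genes, 14.4% higher and 14.5% lower. Of all genes, 49.8% of those called were higher here, and 61.2% after centring each array on its median. Under TNFα 3 of 7 were called, TDO2 and QPRT higher and IDO1 lower, against 28.5% of all genes, 14.1% higher and 14.4% lower. The median size was 0.15 against 0.089 under vehicle, and 0.095 against 0.089 under TNFα. The comparisons share groups and are not independent of each other.

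**Figure D2:**
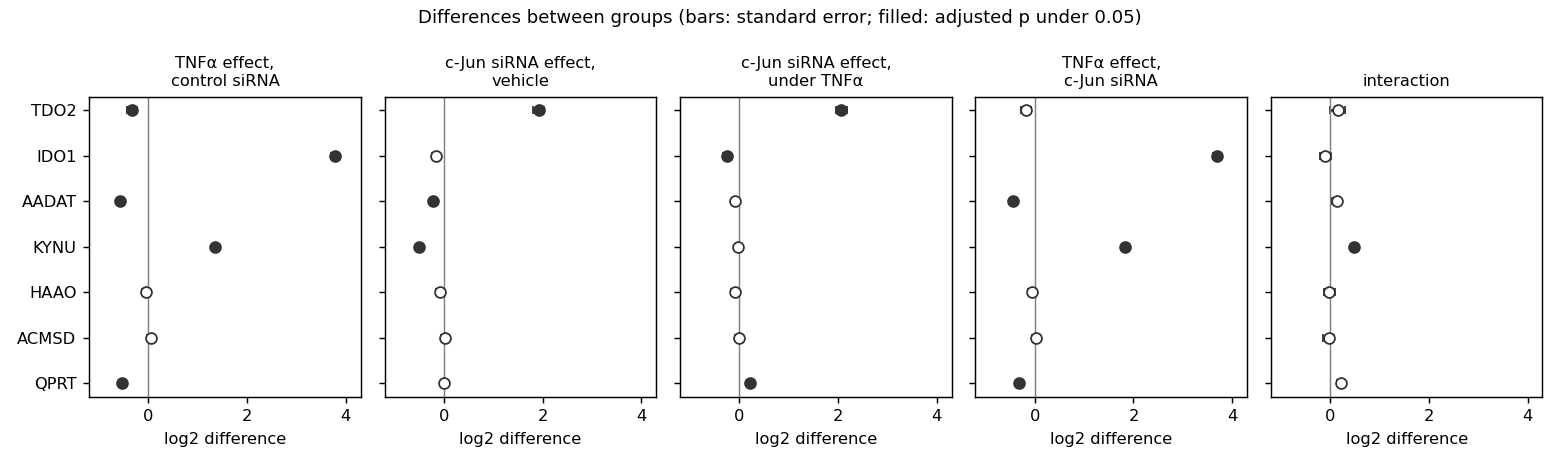
Log2 difference of each member in the 4 pairwise comparisons and in the interaction (the TNFα response with c-Jun siRNA minus that with control siRNA); bars are standard errors, hidden by the symbol where they are short, and filled points have an adjusted p under 0.05. IDO1 stands at 3.79 and 3.69 in the TNFα comparisons and TDO2 at 1.92 and 2.07 in the siRNA comparisons, and KYNU has the only filled interaction among these genes.

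KMO makes 3-hydroxykynurenine and is the neighbour of OPN3 on chromosome 1, and both probe sets that name KMO name OPN3 too, so their signal cannot be assigned to either gene. The dimmer, 7910950, had group means of 5.87 ± 0.182 with control siRNA and vehicle, 8.15 ± 0.0860 with the same siRNA and TNFα, 6.49 ± 0.109 with c-Jun siRNA and vehicle and 8.16 ± 0.103 with c-Jun siRNA and TNFα (SD, n = 3). All vehicle arrays lay below all TNFα arrays. In a fit over all 33297 probe sets it rose with TNFα by 2.28 ± 0.0939 with control siRNA (adjusted p = 5.37e-09) and by 1.67 with c-Jun siRNA (adjusted p = 1.20e-07), and the rises differed by -0.61 ± 0.133 (adjusted p = 0.0370). It was 0.63 higher with c-Jun siRNA under vehicle (adjusted p = 5.66e-04). The brighter, 7925492, had group means of 9.63, 10.01, 9.33 and 9.74 in the same order. It rose by 0.38 ± 0.0361 with TNFα (adjusted p = 8.38e-06) and was lower with c-Jun siRNA under vehicle (-0.30 ± 0.0361, adjusted p = 1.07e-04) and under TNFα (-0.26, adjusted p = 2.98e-04). Under vehicle the 2 probe sets thus moved in opposite directions with c-Jun siRNA.

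Around the members, 6 lists of genes of the wider pathway held 50 genes, of which 46 had a single-symbol probe set. With TNFα under control siRNA 14 of the 46 rose and 10 fell, where 13.8% of all genes rose and 21.9% fell. With c-Jun siRNA under vehicle 17 were higher and 6 lower, beside 14.4% and 14.5% of all genes. Under TNFα 13 were higher and 6 lower with c-Jun siRNA (14.1% and 14.4% of all genes), and TNFα under c-Jun siRNA raised 13 and lowered 10 (11.3% and 18.3%). A called interaction was found for 11 of the 46, all negative, beside 1.88% of all genes with a positive and 3.59% with a negative one. The medians over the 46 were 0.03, 0.09, 0.01 and 0.02 in the pairwise comparisons in that order, beside -0.02, -0.01, 0.00 and -0.02 over all genes. These lists too were drawn up with earlier results known.

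Other enzymes of kynurenine metabolism moved little. Of 5 measured, 3 fell with TNFα under control siRNA, where 21.9% of all genes fell. They were KYAT1, an aminotransferase of the kynurenic acid branch, by 0.39 on the log2 scale (adjusted p = 3.39e-04), AFMID, the formamidase that releases kynurenine, by 0.30 (adjusted p = 0.00212), and GOT2, a mitochondrial aminotransferase, by 0.13 (adjusted p = 0.00437). With c-Jun siRNA, KYAT1 and AFMID fell with TNFα by 0.44 and 0.22 (adjusted p = 1.49e-04 and 0.0192), and ALDH8A1, at a low level, rose by 0.21 (adjusted p = 0.0379). GOT2 was higher with c-Jun siRNA under vehicle (0.18, adjusted p = 2.21e-04) and under TNFα (0.24, adjusted p = 9.62e-06), as was AFMID under TNFα (0.22, adjusted p = 0.0220). IDO2, the paralogue and chromosomal neighbour of IDO1, had group means of 4.16, 4.07, 4.12 and 4.15 and was not called in any comparison.

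Carriers of tryptophan and kynurenine were higher with c-Jun siRNA where they were called, 4 of 8 under vehicle (14.4% of all genes) and 3 of 8 under TNFα (14.1% of all genes). SLC7A11, the cystine-glutamate exchanger, was 0.66 ± 0.0510 higher under vehicle (adjusted p = 1.23e-08) and 0.34 under TNFα (adjusted p = 4.17e-05). SLC7A8, a neutral amino acid exchanger, was 0.47 and 0.62 higher (adjusted p = 3.71e-04 and 1.96e-05), and SLC3A2, the heavy chain that pairs with these exchangers, 0.22 and 0.23 higher (adjusted p = 1.38e-04 and 7.26e-05). SLC7A5, the tryptophan and kynurenine carrier LAT1, was 0.16 higher under vehicle (adjusted p = 0.00146). TNFα raised SLC7A11 by 0.48 with control siRNA (adjusted p = 4.83e-07) and by 0.16 with c-Jun siRNA (adjusted p = 0.0239), and this response differed between the siRNAs (-0.32 ± 0.0721, adjusted p = 0.0120). SLC6A14, at a low level, rose by 0.19 with TNFα under control siRNA (adjusted p = 0.0337) and was not called with c-Jun siRNA (0.05, adjusted p = 0.677).

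NAD synthesis and use, the fate of the QPRT product, held genes that moved in both directions, with 3 of 12 higher and 4 lower with TNFα under control siRNA, beside 13.8% and 21.9% of all genes. CD38, which consumes NAD, rose from 4.90 to 6.55 (1.65 ± 0.111, adjusted p = 8.50e-10), and with c-Jun siRNA from 5.15 to 7.30 (2.15, adjusted p = 2.46e-11). NAMPT, the entry enzyme of NAD salvage from nicotinamide, rose by 0.92 ± 0.0295 (adjusted p = 1.84e-14) and by 0.70 (adjusted p = 1.50e-12), and NNMT, which methylates nicotinamide, by 0.51 (adjusted p = 1.48e-08) and 0.28 (adjusted p = 3.23e-05). Their rises were smaller with c-Jun siRNA, by interactions of -0.22 for NAMPT (adjusted p = 0.00301) and -0.23 for NNMT (adjusted p = 0.0315). Their levels were not lower with it. NAMPT was higher with c-Jun siRNA under vehicle (0.30, adjusted p = 2.57e-07) and under TNFα (0.08, adjusted p = 0.0438). NAPRT, which starts NAD synthesis from nicotinic acid, fell by 0.33 with TNFα (adjusted p = 1.33e-04), and was lower with c-Jun siRNA under vehicle (-0.61, adjusted p = 1.50e-07) and under TNFα (-0.44, adjusted p = 1.06e-05). NMNAT2, which completes NAD, and BST1, a relative of CD38, were higher with c-Jun siRNA under vehicle, by 0.56 (adjusted p = 2.98e-08) and 0.49 (adjusted p = 1.87e-05), and under TNFα, by 0.75 (adjusted p = 7.81e-10) and 0.48 (adjusted p = 2.53e-05). CD38 was 0.75 higher with c-Jun siRNA under TNFα (adjusted p = 3.41e-05). NNMT was higher with c-Jun siRNA, by 0.45 under vehicle (adjusted p = 1.22e-07) and by 0.23 under TNFα (adjusted p = 3.39e-04). NMRK1, at a low level, fell by 0.26 with TNFα under c-Jun siRNA (adjusted p = 0.00464).

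Of 6 measured sensors and targets of kynurenine signalling, AHR, the receptor itself, and CYP1B1, 1 of its target genes, were higher with TNFα and lower with c-Jun siRNA. AHR rose by 0.39 ± 0.0311 with TNFα (adjusted p = 9.40e-09) and was lower with c-Jun siRNA under vehicle (-0.53 ± 0.0311, adjusted p = 3.06e-10) and under TNFα (-0.41, adjusted p = 8.96e-09). CYP1B1 rose by 0.34 with TNFα (adjusted p = 1.48e-07) and was lower with c-Jun siRNA under vehicle (-0.63 ± 0.0329, adjusted p = 6.01e-11) and under TNFα (-0.52, adjusted p = 8.77e-10). With c-Jun siRNA TNFα raised them by 0.50 (adjusted p = 3.12e-10) and 0.44 (adjusted p = 4.46e-09). TIPARP, another AHR target, moved the other way, by -0.44 with TNFα (adjusted p = 5.39e-08) and by 0.11 and 0.20 with c-Jun siRNA (adjusted p = 0.0463 and 7.05e-04). With c-Jun siRNA, TNFα lowered TIPARP by 0.35 (-0.35, adjusted p = 1.47e-06) and ARNT, the partner of AHR, by 0.13 (-0.13, adjusted p = 0.0222). CYP1A1, another listed target at a low level (group means from 4.32 to 4.52), was not called in any comparison. None of the 6 had a called interaction, with values from -0.13 to 0.12, and only 5.47% of all genes had one.

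Of 8 genes for other fates of tryptophan, 2 were called with TNFα under control siRNA (35.7% of all genes) and 1 with TNFα under c-Jun siRNA (29.6% of all genes). MAOB, a monoamine oxidase, had group means of 5.07 with control siRNA and vehicle, 6.23 with the same siRNA and TNFα, 4.62 with c-Jun siRNA and vehicle and 4.65 with c-Jun siRNA and TNFα. It rose by 1.15 ± 0.0893 with TNFα under control siRNA (adjusted p = 5.99e-09). With c-Jun siRNA it was lower under vehicle (-0.45, adjusted p = 7.10e-04) and under TNFα (-1.58, adjusted p = 2.10e-10). Its interaction of -1.13 ± 0.126 (adjusted p = 1.24e-05) was the largest in size among the 46 genes. WARS1, the tryptophanyl-tRNA synthetase, rose by 0.82 with TNFα under control siRNA (adjusted p = 5.38e-11) and by 0.55 under c-Jun siRNA (adjusted p = 1.96e-08), with an interaction of -0.27 (adjusted p = 0.0166).

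The list of IDO1 regulators held 7 measured genes. With TNFα under control siRNA 5 rose and 2 fell, with a median of 1.29 against -0.02 over all genes, of which 13.8% rose and 21.9% fell. IRF1, a transcription factor known to act on IDO1, rose from 8.92 to 11.58 (2.66 ± 0.0478, adjusted p = 3.92e-18). RELB and NFKB2, subunits of the non-canonical NF-kappaB pathway, rose by 2.29 (adjusted p = 5.76e-18) and 2.13 (adjusted p = 3.94e-17), and IFNGR1, an interferon gamma receptor chain, by 1.29 (adjusted p = 2.23e-13). With c-Jun siRNA under vehicle, 6 of the 7 were called higher and 1 lower, beside 14.4% and 14.5% of all genes. The 4 largest differences were those of NFKB2 (1.18, adjusted p = 7.41e-13), RELB (0.82, adjusted p = 5.47e-11), IRF1 (0.67, adjusted p = 3.78e-09) and IFNGR1 (0.55, adjusted p = 8.72e-08). BIN1 was the gene called lower (-0.18, adjusted p = 0.00248), and it also fell with TNFα under control siRNA (-0.32, adjusted p = 6.68e-06).

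The TNFα response was lower with c-Jun siRNA than with control siRNA in 6 of the 7, each with a called negative interaction, which 3.59% of all genes had. The 4 largest in size were NFKB2 (-1.02 ± 0.0635, adjusted p = 1.02e-08), RELB (-0.88 ± 0.0601, adjusted p = 3.02e-08), IRF1 (-0.55 ± 0.0676, adjusted p = 3.51e-05) and SOCS3, an inhibitor of cytokine signalling (-0.47 ± 0.108, adjusted p = 0.0131), which went from 6.71 to 6.39 with TNFα under control siRNA and from 7.06 to 6.27 under c-Jun siRNA. Under TNFα the called siRNA differences were 0.16 for NFKB2 (adjusted p = 0.0124), 0.20 for IFNGR1 (adjusted p = 0.00448) and -0.14 for IFNGR2, the other receptor chain (adjusted p = 0.00999). IDO1 itself, with c-Jun siRNA under vehicle, was at -0.15 (adjusted p = 0.193) while IRF1, RELB and NFKB2 were higher. Whether these regulators act on IDO1 in these cells was not tested.

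**Figure D3:**
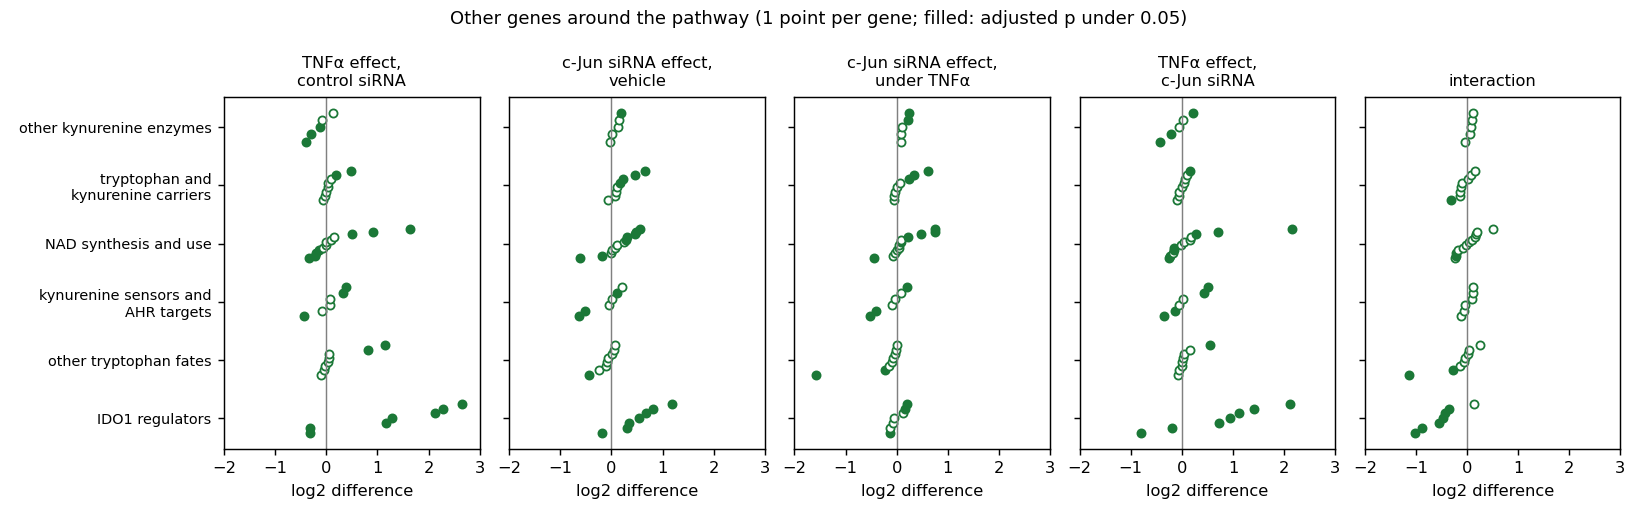
Log2 difference of each of the 46 measured genes around the pathway, in rows by list, for the 4 pairwise comparisons and the interaction; 1 point per gene, filled at an adjusted p under 0.05. The IDO1 regulators reach 2.66 with TNFα under control siRNA, the AHR list holds points at -0.63 and -0.53 with c-Jun siRNA under vehicle, and every filled interaction is negative.

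For the 3 members with a called difference of at least 1, the genes with the most similar 4 group means were found by the root mean square difference over the 4 groups, after subtracting each gene's own mean. The points are 4 group means over the same 12 arrays, so the likeness describes these groups and carries no test. The nearest to TDO2 were ITM2A (0.0604), ARHGDIB (0.0856), CPM (0.137), TMC5 (0.222) and RAB3B (0.223). ITM2A went from 5.21 with control siRNA and vehicle to 7.14 with c-Jun siRNA and vehicle, and ARHGDIB from 7.47 to 9.57. For IDO1 they were CFB (0.173), CYP7B1 (0.205), STAT5A (0.269), IL6 (0.307) and GBP4 (0.312). CFB, a complement factor, went from 5.63 to 9.60 with TNFα under control siRNA. For KYNU they were HTR2A (0.103), MCC (0.114), NFKBIZ (0.157), PHLDA2 (0.158) and PTGS2 (0.160). HTR2A, a serotonin receptor, had group means of 6.46, 7.88, 6.04 and 7.61, and PTGS2, the inducible cyclooxygenase, of 5.67, 7.30, 5.27 and 6.84, each in the order control siRNA with vehicle, control siRNA with TNFα, c-Jun siRNA with vehicle and c-Jun siRNA with TNFα.

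**Figure D4:**
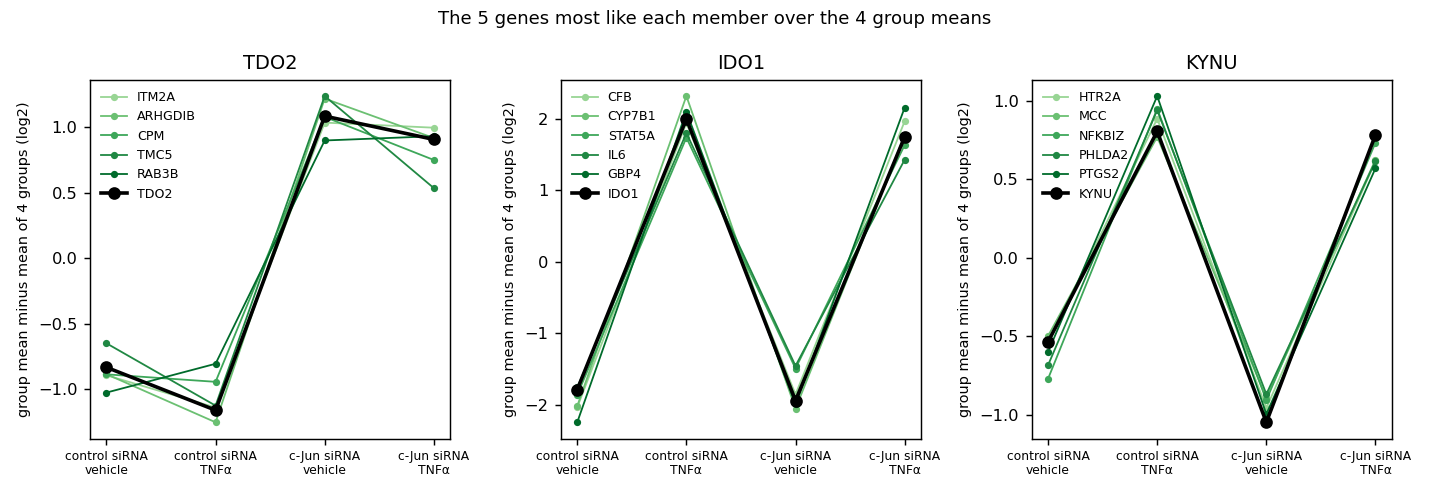
Group means of TDO2, IDO1 and KYNU (black) and of the 5 genes most like each (green), each minus the gene's own mean over the 4 groups, in log2 units. The TDO2 set is high in both c-Jun siRNA groups, and the IDO1 and KYNU sets are high in both TNFα groups.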

How the data were processed

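RNA of 12 samples of the BT549 line was measured on Affymetrix arrays, in 4 groups of 3. The authors deposited 1 table of normalised values for 33297 probe sets, and the submitters' processing notes name Affymetrix Expression Console 1.1 and PLIER, with no role given. The deposited values are read as log2 because they run from 2.27 to 14.0, and no source states the base. The quartiles of the arrays differ by at most 0.0608, so the values were used as deposited with no further scaling. In the platform annotation 19181 probe sets name 1 gene symbol (19143 with an Entrez match in the gene table), 2055 several and 12061 none. Per gene the probe set with the highest 12-array mean was kept, giving 17958 genes.

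Group means were fitted with limma 3.58.1 in R 4.3.3 (8 residual degrees of freedom, prior degrees of freedom 9.29, mean-variance trend, two-sided), with Benjamini-Hochberg adjustment over all genes. The median standard error was 0.065 for a pairwise difference and 0.092 for the interaction. Tables and plots used Python 3.11.15, pandas 2.3.3 and matplotlib 3.10.9. The fit was tested on simulated data. Sequences were read from RefSeq promoter entries.

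The members and lists were chosen with earlier results of these data known. Named were the members, at most 4 called genes per list and comparison (the largest differences), the 5 genes most like each member with a difference of at least 1, JUN, and markers. IDO2, CYP1A1, BIN1 and the means of PTPRC, ESR1 and PGR were named outside the list rule. So were the siRNA differences of NAMPT, that of NNMT under TNFα, and the uncalled TNFα difference of SLC6A14. Alternatives were another scaling, floors at 4 and 5, filters on the dimmest 30% and 50% of genes, and another probe set rule. Others were trend, robust and weighted fits, only the groups compared, a replicate block, and the code in the array names as a block. The last were a threshold of 0.01, replicates 1 and 3 of c-Jun siRNA with TNFα averaged into 1, and leaving out each array. Comparisons within a code were added after seeing the data.

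Same-numbered arrays did not deviate together (correlations from -0.0586 to 0.0884 over 18 pairs), so replicates were not paired. The name of the array labelled c-Jun siRNA with TNFα replicate 3 reads as a second run, and its difference from replicate 1 had an SD of 0.184, near the lowest of the 0.183 to 0.215 of all pairs within groups. The labels call it a replicate, so it was kept as one, and whether it is a separate sample was not settled.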

Additional observations from a re-analysis of the deposited data

Results flagged for a closer look

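The TNFα response of KYNU differed between the siRNAs. The difference of the log2 responses, with c-Jun siRNA minus with control siRNA, was 0.49 by limma's interaction term (adjusted p = 2.11e-05, over all genes). All 3 arrays of c-Jun siRNA with vehicle lay below the 3 of control siRNA with vehicle, while the TNFα arrays overlapped.

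Both probe sets that name KMO together with OPN3 stood outside the members and rose with TNFα under control siRNA, 7910950 by 2.28 and 7925492 by 0.38 on the log2 scale. The TNFα response of 7910950 was lower with c-Jun siRNA than with control siRNA, by an interaction of -0.61 (adjusted p = 0.0370, over all probe sets). Every TNFα array lay above every vehicle array for each siRNA, and which of the genes gives the signal was not tested.

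Among the 46 listed genes around the pathway, limma's interaction was called and negative for 11, beside 3.59% of all genes. Those named, at most 4 per list, were MAOB (-1.13), NFKB2 (-1.02), RELB (-0.88), IRF1 (-0.55), SOCS3 (-0.47), SLC7A11 (-0.32), WARS1 (-0.27), NNMT (-0.23) and NAMPT (-0.22). Their adjusted p ran from 1.02e-08 for NFKB2 to 0.0315 for NNMT.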

How the results depend on the processing

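Over the 35 differences of the members (7 genes, 5 comparisons), 28 kept their status, called or uncalled, in 26 to 30 alternatives each. The other 7 changed in at least 1, and no called value turned its sign. The 28 include differences that were never called, among them all those of HAAO and ACMSD. Calls were lost for TDO2 with TNFα under control siRNA, AADAT with c-Jun siRNA under vehicle and IDO1 with c-Jun siRNA under TNFα. Setting values under 5 to 5 raised the members with a called interaction from 1 to 2, IDO1 being added (-0.25, adjusted p = 0.0353). Every IDO1 vehicle array lies under 5, so with this floor the interaction is only the siRNA difference under TNFα. The added call thus follows from the floor. With the code in the array names as a fixed block, the genes called for the siRNA under vehicle fell from 5183 to 3448. Those for TNFα with c-Jun siRNA fell from 5320 to 2376, and those for the interaction from 983 to 531. The listed pathway genes called for TNFα with c-Jun siRNA fell from 23 to 15. With this block IDO1 was called under vehicle between the siRNAs (-0.34, adjusted p = 0.0231). That block left TDO2 uncalled for TNFα with c-Jun siRNA at 0.26, against -0.18 without it, and the cause was not tested. The vehicle and TNFα arrays of c-Jun siRNA share no code, so TNFα and the code cannot be told apart there. Within code 5 alone, added after seeing the data, 2264 genes were called between the siRNAs. At an adjusted p under 0.01 the interaction kept 553 genes and 7 of 11 listed pathway genes. With only the groups compared, TDO2 was called for TNFα with c-Jun siRNA (adjusted p = 0.0351).

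Leaving out 1 array gave 4 to 5 members called for TNFα with control siRNA, 2 to 3 for the siRNA under vehicle, 2 to 3 for the siRNA under TNFα, 4 for TNFα with c-Jun siRNA and 1 to 2 for the interaction. In the same order the genes called ranged from 5759 to 6516, 4510 to 5282, 4440 to 5190, 4661 to 5313 and 774 to 1009, and the listed pathway genes from 20 to 24, 21 to 24, 16 to 21, 17 to 24 and 9 to 12. With the replicate block, 6333, 5072, 5070, 5249 and 937 genes were called and no member's call changed. Averaging replicates 1 and 3 of c-Jun siRNA with TNFα gave 4610 genes called for the siRNA under TNFα and 4809 for TNFα with c-Jun siRNA, and changed no member's call. Dim signal limits ACMSD, IDO2 and the vehicle level of IDO1, and 3 arrays per group limit all differences.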
